A study of Mus musculus with 15 samples.

Results

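The proteasome genes were examined in the tibialis anterior muscle of mice with and without myotubularin, the lipid phosphatase that is lost in X-linked myotubular myopathy. Members were the rows of the count table whose gene identifier carries a protein-coding symbol starting with Psma, Psmb, Psmc, Psmd, Psme, Psmf or Psmg followed by a number, which gave 50 of the 30672 genes. All mice were males of the 129Pas strain aged 7 weeks, and RNA was sequenced from 15 muscles. The 4 groups were wild-type mice (WT, n = 4), wild-type mice given tamoxifen (WT + TAM, n = 4), mice lacking Mtm1 (Mtm1-/y, n = 4) and mice lacking Mtm1 and given tamoxifen (Mtm1-/y + TAM, n = 3). How tamoxifen was given is not stated in the sources used here.

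The proteasome is the large protease that breaks down proteins tagged with ubiquitin. Its 20S core is a barrel of stacked rings: outer rings of alpha subunits gate the entry, and inner rings of beta subunits hold the catalytic sites. The 19S cap docks on the alpha ring, where a base of ATPases unfolds substrates and non-ATPase subunits receive ubiquitin chains and remove them. Immune cells and cells exposed to interferon swap the catalytic subunits Psmb6, Psmb7 and Psmb5 for the inducible Psmb9, Psmb10 and Psmb8, which makes the immunoproteasome, and PA28, built from Psme1 and Psme2, can take the place of the 19S cap. In muscle the proteasome is known as a main route of protein loss during atrophy.

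By these roles the members fell into 7 alpha ring genes, 7 constitutive beta ring genes, 3 inducible catalytic subunits, 6 ATPases of the 19S base, 11 non-ATPase subunits of the 19S cap, 3 chaperones of 19S assembly, 4 chaperones of 20S assembly, 5 genes of alternative caps and the core regulator Psmf1. Psma8 and Psmb11, the core subunits of germ cells and of the thymus, had at most 3 and 2 reads in any library and were not tested. Psmc3ip, a meiotic recombination factor, met the rule by its symbol alone and is no proteasome subunit. The other 48 members, Psmc3ip included, were among the 15533 genes tested. In what follows, the constitutive core and cap means the 31 genes of the alpha ring, the constitutive beta ring, the 19S base and the 19S non-ATPase subunits.

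Libraries held 18042558 to 45823277 counts. Levels are given as CPM, counts relative to the TMM-scaled library size, and calls rest on edgeR's quasi-likelihood test with p-values adjusted over the 15533 genes by the method of Benjamini and Hochberg and a threshold of 0.05. Mtm1 itself lay at 14.9 to 15.6 CPM in WT and at 2.91 to 3.63 CPM in Mtm1-/y mice, and at 13.5 to 17.7 against 3.04 to 3.71 CPM in the tamoxifen groups, so every library matched its genotype label. The tamoxifen labels have no such check here. The defining myofibre genes, from the actin Acta1 to the parvalbumin Pvalb, were all tested, with a summed level of 155980 to 213523 CPM in WT and 123542 to 161966 CPM in Mtm1-/y mice. Of these 6 genes Acta1 and Tnnt3 were lower in Mtm1-/y mice, with log2 fold changes of -0.43 and -0.51 (median of the 6, -0.30), and none was called between the treated genotypes. Their part in the levels of the proteasome genes was not tested. WT + TAM replicate 1 and Mtm1-/y replicate 1 stood apart from their groups on the principal components, and calls of the genes described that change without them are given beside the value. Nothing in the labels ties the mice to litters, so whether the mice of a group are independent is not known. The p-values set each difference against the spread within groups, estimated from all 15 libraries.

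The first question was whether the loss of Mtm1 went with a different level of proteasome RNA. In Mtm1-/y against WT mice, 25 of the 48 tested members were higher and 2 were lower, where 30.4% of all tested genes were called, 15.5% as higher and 14.9% as lower. The median log2 fold change of the members was 0.29, and that of all genes tested was 0.00047. The constitutive core and cap held 22 of the 25 genes that were higher and none that was lower, and its median log2 fold change was 0.38. The remaining 3 were the assembly chaperones Psmd5 and Psmg4 and the alternative cap gene Psme3. Their 2 counterparts that were lower, Psme1 and Psme4, both belong to alternative caps.

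**Figure D1:**
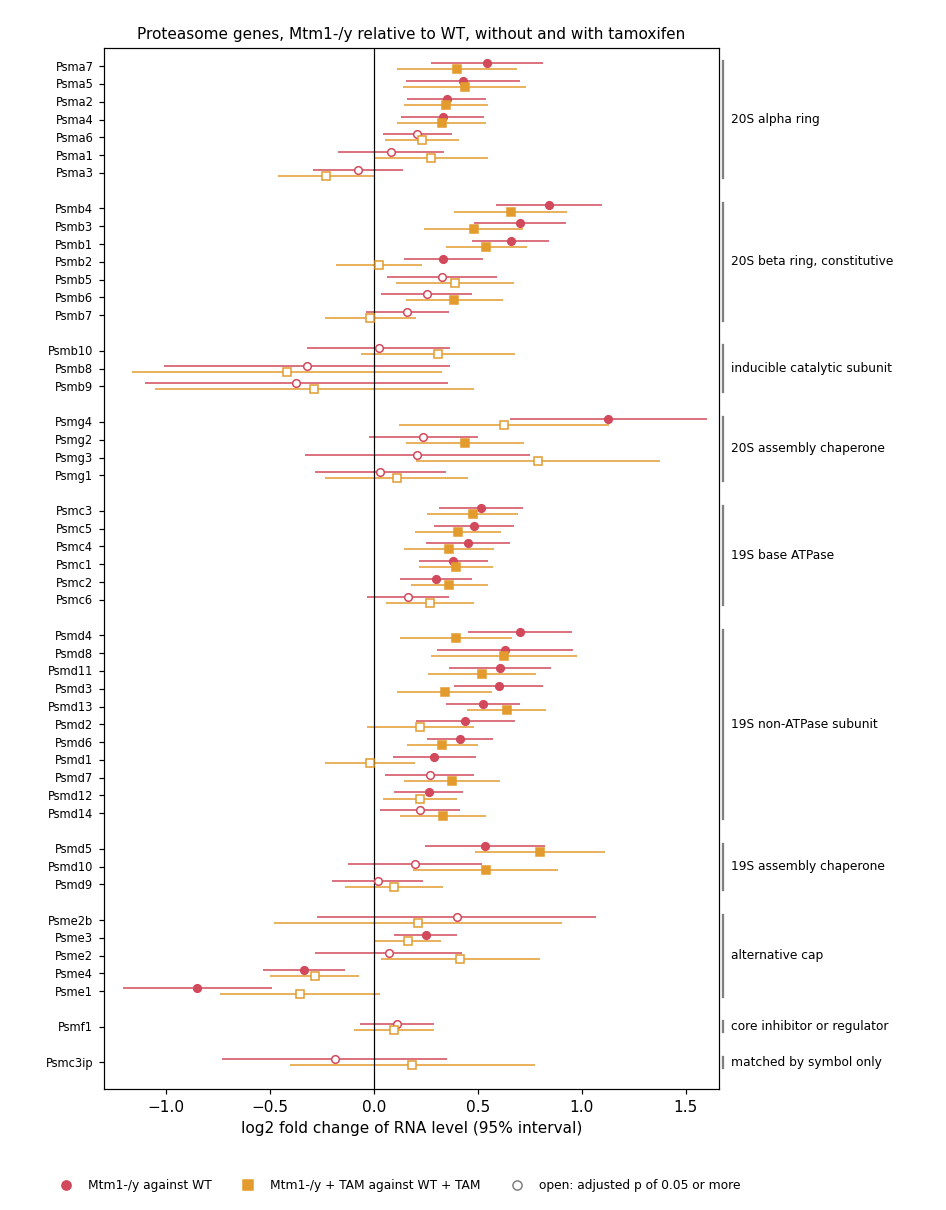
Log2 fold change of each of the 48 tested proteasome genes in Mtm1-/y relative to WT (circles) and in Mtm1-/y + TAM relative to WT + TAM (squares), with 95% intervals and the class of each gene at the right. Filled symbols have an adjusted p under 0.05. The core and 19S cap lie mostly to the right of 0, with 22 and 21 of 31 genes called higher, while the inducible subunits cross 0.

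Summed over the 31 genes of the constitutive core and cap, the RNA level was 3233 CPM ± 145 (SD, n = 4) in WT and 4308 CPM ± 384 (SD, n = 4) in Mtm1-/y mice. WT mice ranged from 3066 to 3405 CPM and Mtm1-/y mice from 3900 to 4827 CPM, so the groups did not overlap. All 4 classes showed this separation. The alpha ring lay at 413 to 492 CPM in WT and 503 to 628 CPM in Mtm1-/y mice, and the beta ring at 574 to 640 against 728 to 874 CPM. For the 19S base the ranges were 759 to 847 and 990 to 1212 CPM, and for the non-ATPase subunits 1306 to 1426 and 1670 to 2112 CPM. These sums describe the group and were not tested as a score.

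**Figure D2:**
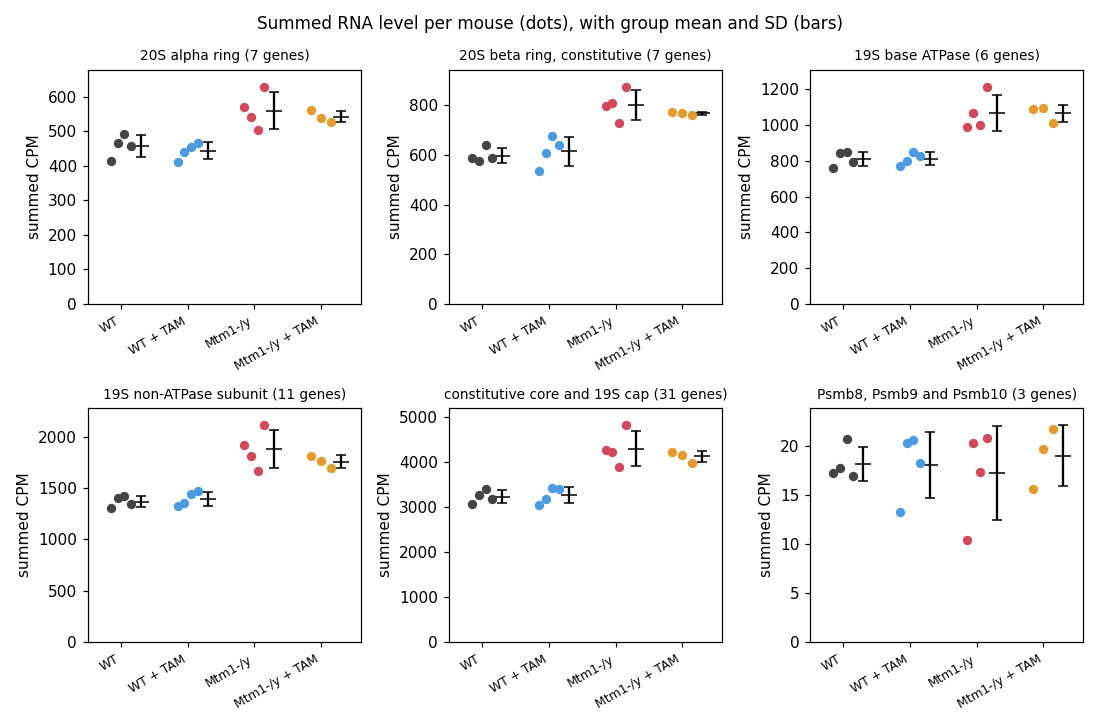
Summed level in CPM of each class of proteasome genes in every mouse (dots) of the 4 groups, with the group mean and SD beside them. In the 5 panels of core and cap genes each Mtm1-/y and Mtm1-/y + TAM mouse lies above every mouse of the WT and WT + TAM groups, and in the panel of Psmb8, Psmb9 and Psmb10 the 4 groups overlap.

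Set against the WT mean of each gene, the median of the 31 genes was -0.12 to 0.07 on the log2 scale in the 4 WT mice and 0.23 to 0.54 in the 4 Mtm1-/y mice. At least 29 of the 31 genes lay above the WT mean in each Mtm1-/y mouse. The mice also varied within their group. In Mtm1-/y replicate 4, 29 of the 31 genes were above their own group's mean, and in replicate 3 only 5 were. On the log2 scale, the mean deviation over all 31 genes was 0.17 in replicate 4 and -0.13 in replicate 3. Of the 31 genes, 21 had every Mtm1-/y library above every WT library, which held for 14.8% of all tested genes, and none had every library below.

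**Figure D3:**
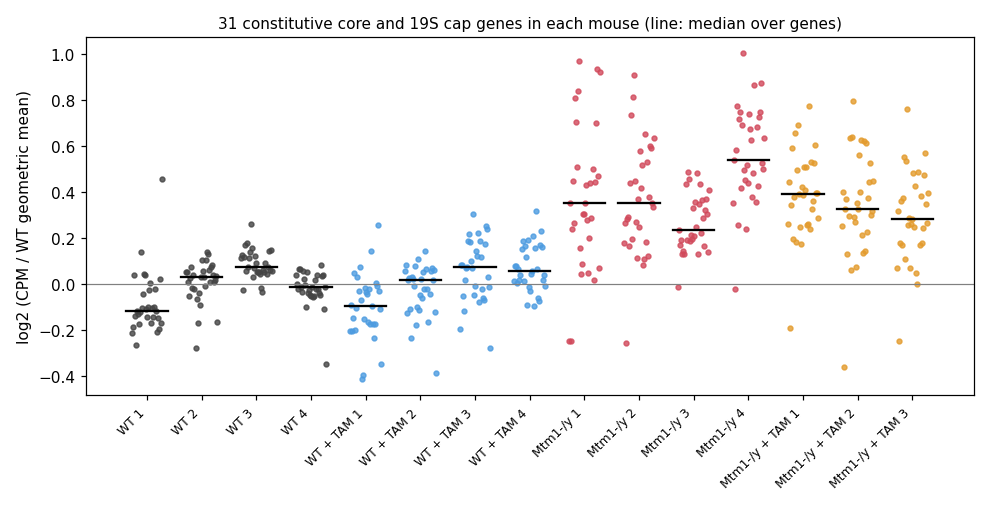
Level of each of the 31 constitutive core and 19S cap genes in each mouse, as the log2 ratio to the mean of log2 CPM in WT (dots), with the median over genes as a line. Medians lie from -0.12 to 0.08 in the 8 mice with Mtm1 and from 0.23 to 0.54 in the 7 mice without it.

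Within the beta ring, the structural subunits carried the largest differences. Psmb4 (chr3:94884093-94886961, minus strand, GRCm38) gave 94.6, 97.3, 122 and 95.0 CPM in WT and 199, 191, 139 and 204 CPM in Mtm1-/y mice. Every Mtm1-/y library lay above every WT library, and the log2 fold change was 0.84 ± 0.12 (SE) with an adjusted p of 0.000168. Psmb3 went from 20.9, 15.6, 20.9 and 18.95 CPM to 33.9, 33.3, 26.6 and 30.6 CPM, a log2 fold change of 0.70 ± 0.10 (SE) with an adjusted p of 0.000227. Psmb1 had the smallest adjusted p of all members, 8.75e-05, with 69.7, 80.8, 82.9 and 81.8 CPM in WT against 128, 131, 106 and 132 CPM and a log2 fold change of 0.66 ± 0.09 (SE). These 3 subunits have no catalytic site. Psmb2, also without one, was higher by a smaller margin, with a log2 fold change of 0.33 ± 0.09 (SE) with an adjusted p of 0.0116.

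The 3 catalytic subunits of the constitutive core did not pass the test. Psmb5, which cuts after hydrophobic residues, lay at 12.7, 11.7, 14.6 and 13.6 CPM in WT and 14.6, 17.9, 14.9 and 18.5 CPM in Mtm1-/y mice, with a log2 fold change of 0.33 (95% interval 0.06 to 0.59, adjusted p = 0.0576). Psmb6, which cuts after acidic residues, lay at 156, 148, 155 and 148 CPM against 157, 183, 176 and 207 CPM, with a log2 fold change of 0.25 (0.04 to 0.47, adjusted p = 0.073). Psmb7, which cuts after basic residues, lay at 185, 169, 189 and 177 CPM against 191, 195, 206 and 213 CPM, with a log2 fold change of 0.16 (-0.04 to 0.36, adjusted p = 0.215). The groups of Psmb6 and Psmb7 nonetheless did not overlap, by narrow gaps. Without Mtm1-/y replicate 1, which had the lowest Psmb6 level of its group, the adjusted p fell to 0.0341 for Psmb5 and to 0.025 for Psmb6. Whether the catalytic and the structural beta subunits differed from each other in their response was not tested.

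In the alpha ring, 4 of the 7 genes were higher, Psma7, Psma5, Psma2 and Psma4. The largest difference was that of Psma7, at 83.9, 90.7, 104 and 89.7 CPM in WT and 160, 124, 101 and 151 CPM in Mtm1-/y mice. Replicate 3 of the Mtm1-/y mice fell within the WT range here, and the log2 fold change was 0.54 ± 0.13 (SE) with an adjusted p of 0.00499. At the other end, Psma3, whose tail takes part in gating the core, lay at 22.3, 21.8, 21.3 and 21.4 CPM in WT and 18.3, 18.2, 24.4 and 21.3 CPM in Mtm1-/y mice. It was the only gene of the constitutive core and cap with a negative log2 fold change, -0.08 (95% interval -0.29 to 0.14, adjusted p = 0.603). Psma1 and Psma6 did not pass the test either, with log2 fold changes of 0.08 and 0.21.

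Of the 6 ATPases of the 19S base, 5 were higher. Psmc3 (chr2:91054009-91066369, plus strand) lay at 204, 227, 226 and 216 CPM in WT and 278, 325, 279 and 363 CPM in Mtm1-/y mice, without overlap, and its log2 fold change was 0.51 ± 0.10 (SE) with an adjusted p of 0.0011. Psmc5, Psmc4, Psmc1 and Psmc2 followed with log2 fold changes of 0.48, 0.45, 0.38 and 0.30. For Psmc6 the values were 115, 139, 133 and 131 CPM against 133, 137, 141 and 168 CPM, which overlapped, and its log2 fold change of 0.16 had an adjusted p of 0.195.

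Among the non-ATPase subunits of the cap, 9 of 11 were higher. Psmd4, a ubiquitin receptor, had the largest difference, from 121, 140, 154 and 143 CPM to 266, 209, 179 and 254 CPM, a log2 fold change of 0.70 ± 0.12 (SE) with an adjusted p of 0.00053. Psmd13, a subunit of the lid, gave 86.4, 88.2, 90.9 and 85.4 CPM in WT and 124, 127, 113 and 141 CPM in Mtm1-/y mice, with a log2 fold change of 0.52 ± 0.08 (SE) with an adjusted p of 0.000381. Psmd8 and Psmd11, lid subunits as well, had log2 fold changes of 0.63 and 0.61, but the WT values of Psmd8 were spread from 101 to 176 CPM and reached into the Mtm1-/y range of 170 to 243 CPM. The 2 genes that were not called were Psmd14, the deubiquitinase of the lid, at 60.1, 68.6, 69.4 and 63.2 CPM in WT against 66.0, 70.9, 79.5 and 87.6 CPM (log2 fold change 0.22, adjusted p = 0.0785), and its partner Psmd7, with 0.27 (adjusted p = 0.0568). Without Mtm1-/y replicate 1 both were called, Psmd14 at an adjusted p of 0.0205. Psmd1, a scaffold of the base, passed at an adjusted p of 0.029 but lost its call in 8 of the 17 alternative analyses.

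Assembly chaperones were measured as well. Psmg4, which pairs with Psmg3 to help build the alpha ring, had the largest log2 fold change of all members, 1.13 ± 0.22 (SE) with an adjusted p of 0.00168, from 1.97, 2.96, 2.52 and 1.41 CPM to 6.36, 5.40, 3.78 and 3.70 CPM. Its level was low, and Psmg1, Psmg2 and Psmg3 did not pass the test, with log2 fold changes of 0.03, 0.24 and 0.21, although Psmg2 was called without Mtm1-/y replicate 1. Psmg1 had the smallest of these, at 8.22, 7.90, 9.78 and 5.75 CPM in WT and 7.45, 8.11, 8.68 and 8.02 CPM in Mtm1-/y mice. Psmd5, which holds ATPases of the base during assembly, was steady in WT, at 18.8, 18.2, 18.8 and 18.7 CPM, and lay at 19.6, 30.8, 23.8 and 33.7 CPM in Mtm1-/y mice. Its log2 fold change was 0.53 ± 0.14 (SE) with an adjusted p of 0.00853. The other chaperones of the base, Psmd9 and Psmd10, had log2 fold changes of 0.02 and 0.20 and were not called. Psmd9 lay at 21.4, 19.7, 20.7 and 20.9 CPM in WT and 16.0, 23.1, 21.5 and 23.1 CPM in Mtm1-/y mice.

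The immunoproteasome subunits showed no such difference. Psmb8 lay at 2.90, 3.32, 4.25 and 4.40 CPM in WT and 1.57, 3.51, 2.13 and 4.64 CPM in Mtm1-/y mice, with a log2 fold change of -0.32 (95% interval -1.01 to 0.37, adjusted p = 0.481). Psmb9 lay at 1.80, 1.54, 1.77 and 1.61 CPM against 0.549, 1.65, 1.11 and 1.88 CPM, with a log2 fold change of -0.37 (-1.10 to 0.36, adjusted p = 0.436). Psmb10, the most abundant of the 3, lay at 12.6, 12.9, 14.8 and 10.9 CPM against 8.34, 15.2, 14.1 and 14.4 CPM, with a log2 fold change of 0.02 (-0.32 to 0.36, adjusted p = 0.935). Mtm1-/y replicate 1 had the lowest value of its group for each of the 3. The intervals of Psmb8 and Psmb9 are wide. Their upper ends lie just under 0.38, the median of the constitutive core and cap. Smaller rises, and falls of that size, are not excluded for these 2 genes. Psmb9 shares bases with its neighbour Tap1 on the opposite strand, which had 1675 counts in all against 866 for Psmb9, and whether reads were counted by strand is not stated in the sources used here.

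Per kilobase of exon, the inducible subunits were a minor share of the catalytic genes in every mouse. Psmb8, Psmb9 and Psmb10 together made up 5.76% ± 0.47 (SD, n = 4) of the level of the 6 catalytic genes in WT, 5.51% ± 0.35 (n = 4) in WT + TAM, 4.80% ± 0.96 (n = 4) in Mtm1-/y and 5.25% ± 0.77 (n = 3) in Mtm1-/y + TAM mice. The ranges overlapped, with 5.31 to 6.32% in WT and 3.42 to 5.61% in Mtm1-/y mice. By pair, the inducible share in WT was 12.5% for Psmb10 beside Psmb7, 6.97% for Psmb8 beside Psmb5 and 0.563% for Psmb9 beside Psmb6. The size and order of these shares depend on the length used, that of all annotated exons. It was 3381 bases for Psmb8 and 899 for Psmb5, whose mean levels in WT were 3.72 and 13.1 CPM before division by length. In bulk muscle, fewer cells of a type and less RNA per cell cannot be told apart. Of 16 leucocyte markers 7 could be tested, and only Cd68, of macrophages, was higher, while markers such as Cd3e, Cd8a, Nkg7 and Flt3 were too low to test. Their summed level was 15.6 to 30.2 CPM in WT and 18.7 to 53.4 CPM in Mtm1-/y mice. All 4 endothelial markers were lower, with a sum of 357 to 471 CPM in WT and 180 to 248 CPM in Mtm1-/y mice, and of 3 fibroblast markers Pdgfra was higher. Their part in the levels of the proteasome genes was not tested.

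**Figure D4:**
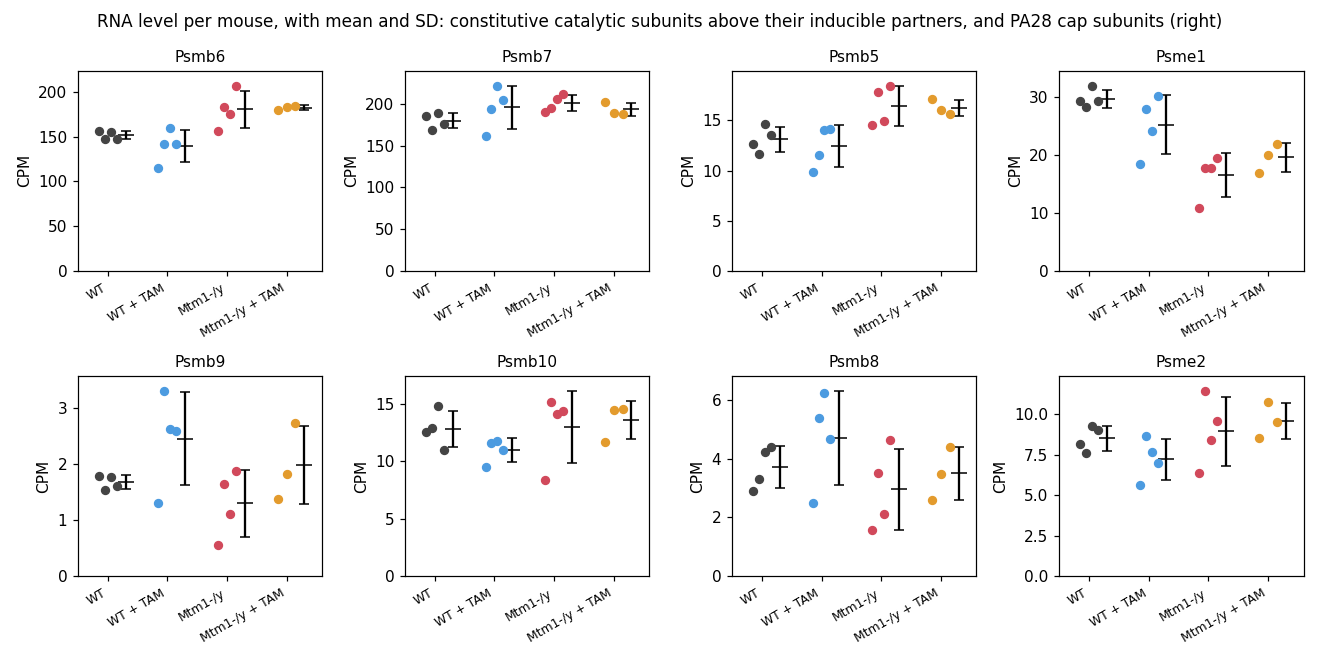
Level in CPM of the catalytic subunits and of Psme1 and Psme2 in every mouse (dots), with the group mean and SD. In the first 3 columns each constitutive subunit stands above its inducible partner. Psme1 lies at 28.3 to 32.0 CPM in WT and at 10.9 to 19.4 CPM in Mtm1-/y mice, while the groups of Psme2 overlap.

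Of the 5 alternative cap genes 2 were lower, 1 was higher and 2 were not called, and their median log2 fold change was 0.07. Psme1 (chr14:55578123-55581529, plus strand), which encodes PA28 alpha, fell from 29.3, 28.3, 32.0 and 29.2 CPM in WT to 10.9, 17.8, 17.8 and 19.4 CPM in Mtm1-/y mice, without overlap, a log2 fold change of -0.85 ± 0.17 (SE) with an adjusted p of 0.0017. It was the largest fall among the members. Its partner in PA28, Psme2, lies 5912 bases away on the other strand and had 8.17, 7.63, 9.25 and 9.01 CPM against 6.36, 11.5, 8.42 and 9.61 CPM, with a log2 fold change of 0.07 (95% interval -0.28 to 0.42, adjusted p = 0.779). Psme1 overlaps Emc9 on the opposite strand, and the pair had 10646 and 8261 counts in all, so reads of the other gene may be part of the Psme1 value if strand was not used.

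Psme4, which encodes the PA200 cap, was lower as well, at 375, 454, 413 and 404 CPM in WT and 322, 320, 303 and 357 CPM in Mtm1-/y mice, with a log2 fold change of -0.34 ± 0.09 (SE) with an adjusted p of 0.0126. Psme3, the nuclear PA28 gamma, went the other way, from 54.6, 52.9, 53.1 and 49.2 CPM to 60.8, 60.8, 64.2 and 63.4 CPM, a log2 fold change of 0.25 ± 0.07 (SE) with an adjusted p of 0.0158. The Psme3 call was lost without a filter on low counts and without WT replicate 4, where the adjusted p reached at most 0.0728. Neither overlapped between the groups, and 15.7% of all tested genes had every Mtm1-/y library below every WT library. Psme2b, a close copy of Psme2 with 209 counts in all, was not called, at 0.295, 0.316, 0.443 and 0.293 CPM against 0.314, 0.605, 0.508 and 0.358 CPM, and its counts are uncertain because reads may be shared between the copies. Psmf1, which binds the core, lay at 18.4, 19.8, 18.2 and 22.0 CPM in WT and 21.3, 20.9, 22.1 and 20.2 CPM in Mtm1-/y mice (log2 fold change 0.11, adjusted p = 0.345). Psmc3ip was not called either, at 1.60, 1.30, 1.682 and 1.88 CPM against 1.94, 0.968, 1.27 and 1.46 CPM, with a log2 fold change of -0.19 (adjusted p = 0.609).

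Subunits that sit in equal number in the particle did not have equal RNA levels. Per kilobase of exon, the alpha ring ran in WT from 5.57 CPM for Psma3 to 109 CPM for Psma6, a 19.6-fold range, and the beta ring from 8.30 CPM for Psmb3 to 81.0 CPM for Psmb6. The ATPases of the base were closer together, from 27.5 CPM for Psmc2 to 95.3 CPM for Psmc5, a 3.47-fold range. The lowest gene of each of these classes was also its lowest in the other 3 groups, and so was the highest. Among the 19S non-ATPase subunits the lowest was Psmd11 in every group. The highest there was Psmd7, except in Mtm1-/y mice, where it was Psmd4. These levels divide by the length of all annotated exons, which exceeds that of the main transcript for some genes.

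Of 30 other genes of the ubiquitin-proteasome pathway that could be tested, 6 were higher and 3 were lower in Mtm1-/y mice, and their median log2 fold change was 0.20. The 9 called genes are 30% of the list, beside 30.4% of all tested genes. Among the 9 called genes the largest differences were those of Adrm1 and Pomp. Adrm1, a ubiquitin receptor of the cap, went from 9.52, 10.9, 11.1 and 9.92 CPM to 24.6, 18.4, 16.6 and 17.2 CPM, a log2 fold change of 0.90 ± 0.13 (SE) with an adjusted p of 0.000154. Pomp, the maturation factor of the core, went from 58.8, 61.1, 61.8 and 62.4 CPM to 74.8, 124, 88.8 and 120 CPM, a log2 fold change of 0.74 ± 0.13 (SE) with an adjusted p of 0.00092. The others that were higher were Nploc4, Nsfl1c and Ufd1, cofactors of the segregase p97, and Usp14, a deubiquitinase of the cap, with log2 fold changes of 0.70, 0.38, 0.27 and 0.28. Uba6, an enzyme that activates ubiquitin, Ecpas, an adaptor of the proteasome, and Uchl5, the other deubiquitinase, were lower, with log2 fold changes of -0.48, -0.40 and -0.24. Uba6 lay at 7.04, 6.40, 6.90 and 6.34 CPM in WT and 4.39, 4.598, 4.86 and 5.26 CPM in Mtm1-/y mice, and Usp14 at 64.7, 69.1, 71.7 and 64.7 against 82.5, 75.2, 85.2 and 85.2 CPM. Nfe2l1, the transcription factor known to drive proteasome genes when the particle is inhibited, lay at 642, 761, 648 and 697 CPM in WT and 779, 858, 832 and 866 CPM in Mtm1-/y mice, and its log2 fold change of 0.28 had an adjusted p of 0.0609, which was 0.0459 without Mtm1-/y replicate 1 and 0.0191 with DESeq2. The small cap subunit Sem1 did not pass either, at 59.8, 61.6, 59.3 and 61.3 CPM against 53.3, 85.3, 70.3 and 85.8 CPM (log2 fold change 0.28, adjusted p = 0.0841). The lowest Sem1 value of the Mtm1-/y mice was that of replicate 1, and without it the log2 fold change was 0.41 and Sem1 was called, at an adjusted p of 0.00207.

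Of 13 genes of class I antigen processing and the interferon response, none was higher and 4 were lower in Mtm1-/y mice, or 30.8%, where 14.9% of all tested genes were lower and 30.4% were called in either direction. Erap1, which trims peptides that the proteasome releases, had a log2 fold change of -0.63 ± 0.11 (SE) with an adjusted p of 0.000612. The other 3 were Irf8, Ifit3 and Isg15, with log2 fold changes of -0.67, -1.37 and -1.26. Tap1 and Tap2, which carry those peptides to class I molecules, were not called, with log2 fold changes of -0.29 and -0.09. Between the treated genotypes 3 of the 13 were lower, Erap1, Irf8 and H2-K1, with log2 fold changes of -0.64, -0.78 and -0.59, where 9.46% of all tested genes were lower.

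Promoter windows of 300 bases, from 250 before to 50 after the RefSeq start on GRCm38.p6, were available for 42 of the 50 members. The antioxidant response element core, TGACNNNGC, to which Nfe2l1 and its relatives bind, was found on either strand in 6 of the 42 windows, or 14.3%, and in 14.0% of 27025 genes. In the constitutive core and cap it was in 1 of 18 windows of genes called higher, that of Psmd12, and in 3 of 7 of genes not called, those of Psmb5, Psmb6 and Psmc6. The interferon-stimulated response element, GAAA, any 2 bases and GAAA again, was in 5 of the 42 windows, or 11.9%, and in 4.0% of all genes. It was in those of Psmb3, Psmd4, Psmg4, Psmd9 and Psme1, of which the first 3 were higher and Psme1 was lower. The CCAAT box was in 35.7% of the members' windows and 41.1% of all genes, and the gamma-activated sequence, TTCNNNGAA, in 7.1% and 9.6%. A match of letters does not show that a factor binds there.

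A called and an uncalled gene with the antioxidant element, and a gene that was higher and one that was lower with the interferon element, follow from RefSeq, 5′ to 3′ on the strand of the gene, with the match in capitals. Psmd12 lies at chr11:107479278-107479577 on the plus strand, Psmb6 at chr11:70525107-70525406 on the plus strand, Psmd4 at chr3:95042565-95042864 on the minus strand and Psme1 at chr14:55578244-55578543 on the plus strand.
Psmd12: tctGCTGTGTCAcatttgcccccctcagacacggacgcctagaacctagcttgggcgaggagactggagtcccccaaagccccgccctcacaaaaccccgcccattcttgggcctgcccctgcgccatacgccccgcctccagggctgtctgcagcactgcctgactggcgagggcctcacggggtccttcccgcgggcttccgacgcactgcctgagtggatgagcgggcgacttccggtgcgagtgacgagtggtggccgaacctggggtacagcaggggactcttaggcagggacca
Psmb6: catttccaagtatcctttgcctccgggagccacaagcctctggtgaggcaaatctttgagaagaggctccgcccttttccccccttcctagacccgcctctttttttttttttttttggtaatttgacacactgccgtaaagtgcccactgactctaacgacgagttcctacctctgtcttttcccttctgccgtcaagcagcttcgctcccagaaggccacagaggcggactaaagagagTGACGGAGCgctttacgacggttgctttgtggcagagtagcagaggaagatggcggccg
Psmd4: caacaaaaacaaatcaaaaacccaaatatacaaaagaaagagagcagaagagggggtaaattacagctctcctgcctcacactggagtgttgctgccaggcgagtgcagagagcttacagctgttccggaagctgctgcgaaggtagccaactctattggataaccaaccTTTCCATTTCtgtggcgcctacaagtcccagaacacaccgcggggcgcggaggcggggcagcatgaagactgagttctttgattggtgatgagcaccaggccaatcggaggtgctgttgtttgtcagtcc
Psme1: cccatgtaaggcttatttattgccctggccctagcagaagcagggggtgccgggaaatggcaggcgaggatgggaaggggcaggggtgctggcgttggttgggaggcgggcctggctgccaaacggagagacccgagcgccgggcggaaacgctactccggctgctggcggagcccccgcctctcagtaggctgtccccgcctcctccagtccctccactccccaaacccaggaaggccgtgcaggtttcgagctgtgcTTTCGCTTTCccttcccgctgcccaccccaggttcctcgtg
Relative to the start, the first base of the match was at -247 in Psmd12, -9 in Psmb6, -80 in Psmd4 and 9 in Psme1, and in all but Psmb6 the motif read on the opposite strand. GENCODE places the 5′ end of Psme1 371 bases from the RefSeq start used here, and the other 3 within 44 bases.

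The next question was whether the difference between genotypes was also seen in mice given tamoxifen, which share no library with the first comparison. Both comparisons come from 1 fit of all 15 libraries and use the same estimate of the spread, so their calls are not fully independent. In Mtm1-/y + TAM against WT + TAM mice, 24 of 48 members were higher and none was lower, where 20.1% of all tested genes were called, 10.6% as higher and 9.46% as lower. The constitutive core and cap held 21 of the 24, and its median log2 fold change was 0.36, beside -0.017 for all genes tested. Summed over the 31 genes, WT + TAM mice ranged from 3047 to 3420 CPM and Mtm1-/y + TAM mice from 3994 to 4238 CPM. In 27 of the 31 genes every Mtm1-/y + TAM library lay above every WT + TAM library, which held for 17.2% of all tested genes. The number of calls rested on the small group of 3: it was 12 without Mtm1-/y + TAM replicate 1 and 10 without replicate 2.

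Of the members called higher, 19 were called in both comparisons, which was 76% of the 25 in untreated and 79.2% of the 24 in treated mice. For all genes called higher the shares were 49.2% and 71.7%. Psmd13 had the smallest adjusted p among the members in the treated comparison, 0.000232, at 74.6, 78.2, 84.1 and 84.1 CPM in WT + TAM and 126, 134 and 114 CPM in Mtm1-/y + TAM mice, and a log2 fold change of 0.64 ± 0.09 (SE). Psmd5 had the largest log2 fold change, 0.80 ± 0.15 (SE) with an adjusted p of 0.00181, from 16.0, 17.4, 15.3 and 17.4 CPM to 28.6, 32.2 and 25.4 CPM. The beta subunits with large differences in untreated mice were higher again. Psmb4 lay at 97.03, 107, 115 and 114 CPM in WT + TAM and 164, 176 and 172 CPM in Mtm1-/y + TAM mice (log2 fold change 0.66), Psmb1 at 80.4, 80.4, 82.9 and 87.5 against 124, 122 and 115 CPM (0.54), and Psmb3 at 19.99, 18.9, 22.1 and 19.1 against 26.8, 29.5 and 27.4 CPM (0.48). Of the base, Psmc3 lay at 212, 221, 240 and 224 against 310, 321 and 304 CPM (0.47), Psmc5 at 131, 138, 155 and 154 against 189, 205 and 179 CPM (0.40), Psmc1 at 93.9, 88.0, 92.0 and 94.3 against 127, 122 and 114 CPM (0.39) and Psmc2 at 134, 133, 137 and 135 against 180, 173 and 168 CPM (0.36). The lid subunit Psmd11 lay at 63.8, 71.2, 74.0 and 84.7 against 116, 105 and 95.3 CPM (0.52). These 8 genes were chosen by their p in this same comparison, so their calls are a description only. Among the catalytic subunits Psmb6 was called here, at 115, 142, 159 and 142 CPM against 180, 183 and 185 CPM (log2 fold change 0.39 ± 0.11 SE, adjusted p = 0.0224). That call was lost when any of the 3 Mtm1-/y + TAM libraries was left out, with adjusted p-values of 0.0563, 0.0711 and 0.0663. Psmb5 again missed the threshold, with a log2 fold change of 0.39 and an adjusted p of 0.0524. Psma3 had a log2 fold change of -0.23 and was called lower without the 2 libraries that stand apart, at -0.28 with an adjusted p of 0.049.

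Psmd1, Psmd12, Psmd2, Psmg4, Psmb2 and Psme3 were called higher in the untreated comparison and not in the treated one, and Psmd10, Psmd14, Psmd7, Psmg2 and Psmb6 the reverse. These lists were read off after the values were seen, and each of the latter 5 lost its call with at least 1 of the Mtm1-/y + TAM libraries left out. None of the 48 members was called in the interaction test, which asks whether the genotype difference itself differed between treated and untreated mice. No gene of the 15533 was called there, where DESeq2 called 74 genes and no member. The 95% interval of the interaction lay within 0.5 on the log2 scale for only 26 of the 48 members, so differences of that size are not excluded for the others. The unadjusted p was under 0.05 for 2 members, Psmb2 and Psmd1, and for 10.6% of all genes. Psmb2 lay at 50.8, 52.6, 58.9 and 58.9 CPM in WT + TAM and 58.7, 54.1 and 55.9 CPM in Mtm1-/y + TAM mice, and its interaction of -0.31 (95% interval -0.59 to -0.03) had an adjusted p of 0.439.

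The alternative caps and the immunoproteasome were called in neither direction in treated mice. Psme1 lay at 18.5, 28.0, 24.2 and 30.1 CPM in WT + TAM and 16.9, 20.02 and 21.9 CPM in Mtm1-/y + TAM mice, with a log2 fold change of -0.36 (95% interval -0.74 to 0.03, adjusted p = 0.184). Its lowest value among the WT + TAM mice was that of replicate 1. With that library and Mtm1-/y replicate 1 left out, the log2 fold change of Psme1 was -0.47 and it was called, at an adjusted p of 0.00337. Psme4 missed the threshold, at 381, 352, 349 and 380 CPM against 329, 296 and 273 CPM (log2 fold change -0.29, adjusted p = 0.0572), although its groups did not overlap. Psmb8, Psmb9 and Psmb10 had log2 fold changes of -0.42, -0.29 and 0.31, with adjusted p-values of 0.433, 0.625 and 0.231. The summed leucocyte markers were 26.2 to 36.4 CPM in WT + TAM and 45.7 to 71.2 CPM in Mtm1-/y + TAM mice, with none of the 7 tested genes called. Of the 4 endothelial markers Pecam1, Cdh5 and Tek were lower, with a median log2 fold change of -0.78 over the 4 and a sum of 229 to 437 CPM against 193 to 244 CPM. The sum of 229 CPM was that of WT + TAM replicate 1, and the other WT + TAM mice had 377 to 437 CPM. None of the 3 fibroblast markers was called. Their sum was 321 to 1826 CPM in WT + TAM, highest in replicate 1, and 357 to 725 CPM in Mtm1-/y + TAM mice. Their part in the levels of the proteasome genes was not tested here either.

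In the wider pathway, 4 of the 30 genes were higher and 2 lower in treated mice, or 20% in all, beside 20.1% of all tested genes. Pomp was higher again, from 56.0, 59.0, 56.4 and 55.6 CPM to 103, 124 and 96.0 CPM, a log2 fold change of 0.92 ± 0.14 (SE) with an adjusted p of 0.000501. Sem1 passed here (log2 fold change 0.47, adjusted p = 0.0183), as did the p97 cofactors Ubxn1 and Nsfl1c, with log2 fold changes of 0.62 and 0.38. Ecpas was lower again, by a log2 fold change of -0.42, and Ubqln4, a shuttle for ubiquitinated proteins, had -0.28. Adrm1 did not pass, with a log2 fold change of 0.37 (adjusted p = 0.0663), but was called without the 2 libraries that stand apart (0.32, adjusted p = 0.0341), and Nfe2l1 had 0.05 (adjusted p = 0.789).

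The last question was whether tamoxifen itself moved these genes. In Mtm1-/y + TAM against Mtm1-/y mice no member was called, where 0.0129% of all tested genes were, and in WT + TAM against WT mice no member was called, where 0.309% were, 0.18% as higher and 0.129% as lower. The 2 comparisons with tamoxifen share their mice with the genotype comparisons above. At an unadjusted p under 0.05 there was 1 member in Mtm1-/y mice, Psmb2, and none in WT mice, beside 5.54% and 11.3% of all genes. DESeq2 and limma-voom called no member in either comparison. In WT mice Psmd1 had every treated library above every untreated library, which held for 4.22% of all tested genes, and 3 members had every library below, beside 3.86%. In Mtm1-/y mice no member had every treated library above, beside 3.33% of all genes.

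**Figure D5:**
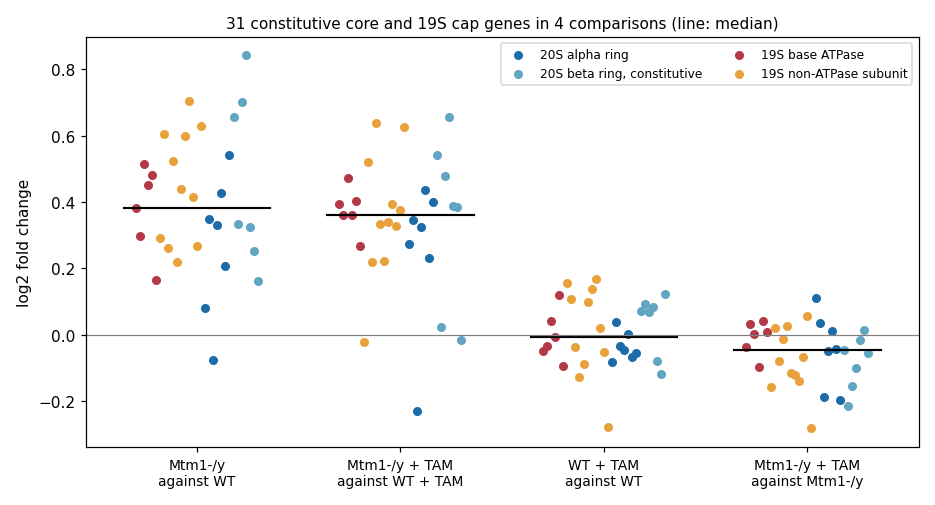
Log2 fold change of the 31 constitutive core and 19S cap genes in the 2 genotype and the 2 tamoxifen comparisons, coloured by class, with the median as a line. The medians are 0.38 and 0.36 for genotype, and -0.0083 and -0.046 for tamoxifen in WT and Mtm1-/y mice. Comparisons that share a group are not independent.

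For the constitutive core and cap, the median log2 fold change with tamoxifen was -0.046 in Mtm1-/y and -0.0083 in WT mice. The 95% intervals of these genes had a median half-width of 0.22 on the log2 scale in Mtm1-/y and 0.20 in WT mice. The bound of 0.5 used next is wider than the median genotype differences of 0.38 and 0.36 in the same genes. In each of the 2 tamoxifen comparisons the 95% interval lay within 0.5 on the log2 scale, or 1.41-fold, on either side of 0 for 30 of the 31 genes. The exception was Psmd8 in both. It lay at 243, 199, 170 and 199 CPM in Mtm1-/y and 157, 175 and 169 CPM in Mtm1-/y + TAM mice (log2 fold change -0.28, 95% interval -0.64 to 0.07), and at 176, 114, 133 and 101 CPM in WT against 101, 98.1, 106 and 128 CPM in WT + TAM mice (-0.28, -0.60 to 0.05). The summed level of the 31 genes was 4134 CPM ± 126 (SD, n = 3) in Mtm1-/y + TAM and 3267 CPM ± 178 (SD, n = 4) in WT + TAM mice, and each range overlapped that of the untreated mice of the same genotype.

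Psmb2 had every Mtm1-/y + TAM library below every Mtm1-/y library, at 58.7, 54.1 and 55.9 CPM against 73.6, 59.4, 59.1 and 69.2 CPM, which held for 2.38% of all tested genes. Its log2 fold change of -0.22 (95% interval -0.42 to -0.01) had an adjusted p of 0.855. Psme1 lay at 10.9, 17.8, 17.8 and 19.4 CPM in Mtm1-/y and 16.9, 20.02 and 21.9 CPM in Mtm1-/y + TAM mice, with a log2 fold change of 0.26 (-0.13 to 0.64, adjusted p = 0.877).

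The inducible subunits were less well bounded. Psmb9 had the largest log2 fold change of any member with tamoxifen in Mtm1-/y mice, 0.63 (95% interval -0.14 to 1.41, adjusted p = 0.855), at 1.38, 1.83 and 2.74 CPM against 0.549, 1.65, 1.11 and 1.88 CPM. In WT mice it lay at 1.31, 3.31, 2.63 and 2.59 CPM with tamoxifen and 1.80, 1.54, 1.77 and 1.61 CPM without (log2 fold change 0.55, -0.17 to 1.26, adjusted p = 0.581). Psmb8 had 0.25 and 0.35 in the 2 comparisons, and Psmb10 had 0.07 and -0.22. The intervals of Psmb8 and Psmb9 reached beyond 1.41-fold in at least 1 direction in both comparisons. In such a direction, neither effects of tamoxifen beyond that size nor smaller ones are excluded for these 2 genes.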

How the data were processed

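Poly(A) RNA of 15 tibialis anterior muscles was sequenced from stranded libraries. Per the labels, the authors deposited raw read counts for each Ensembl gene and mouse, without normalization. The submitters' processing notes list HTSeq 0.6.1p1, STAR 2.5.3a, Bowtie2 2.2.8 and cutadapt 1.10 beside the builds GRCm38 and mm10, with no role or order. For the annotation release and strand setting, nothing is stated in the sources used here. Besides Psme1 and Psmb9, further members overlap a counted gene on the opposite strand and share that uncertainty. Among them are Psmd13 (49449 counts) with Sirt3 (15301), Psmc3 (125537) with Slc39a13 (14952) and Psmb7 (91077) with Nek6 (8166). Psma2 (36426) overlaps AW209491 (5586) on its own strand. Each of the 30672 identifiers matched GENCODE M21 (GRCm38), which gave symbols, coordinates and exon lengths.

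Counts were analysed as deposited in edgeR 4.0.16 (R 4.3.3). Genes passed filterByExpr with a minimum count of 10. Means of the 4 groups were fitted to all 15 libraries with TMM factors which left 11 residual degrees of freedom, and each contrast was a two-sided glmQLFTest. Standard errors were taken from the fold change and its F statistic, and 95% intervals from the moderated degrees of freedom. Alternatives used DESeq2 1.42.0, limma-voom (limma 3.58.1), other factors, filters and subsets of libraries. On simulated data for 15265 genes, 58.6% of genes changed by a fold of 2 and 30.3% of those changed by a fold of 1.5 were recovered in Mtm1-/y against WT, and 3.54% of calls were false. At a fold of 1.5, 19% were recovered in Mtm1-/y + TAM against Mtm1-/y (3.14% of calls false) and 22.3% in WT + TAM against WT (7.37% false). The simulation changed far fewer genes than the 4727 called in Mtm1-/y against WT. Its recovered and false shares therefore need not hold for that comparison.

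The members, classes, gene lists and tests were chosen with earlier results of these data known, and none is independent support for what those results showed. Genes given by library in at least 1 genotype comparison were the catalytic and PA28 subunits, the members with the highest and lowest fold change of each class, the 10 members with the smallest p in the treated genotype comparison, and Nfe2l1, Pomp, Adrm1, Sem1, Usp14 and Uba6. Others were named after their values were seen. Pseudogenes (4 rows with 69 counts in all) were left out. Intervals do not cover effects shared by all mice of a group.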

Additional observations from a re-analysis of the deposited data

Results flagged for a closer look

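In 5 of the 120 groups of 4 mice examined, the highest or lowest level lay so far from the others that its gap passed the 95% limit of Dixon's test, and chance alone flags about 1 in 20. Psmb4 in WT replicate 3 was 122 CPM, above 94.6 to 97.3 CPM in the other WT mice and below the Mtm1-/y mice. Psmb1 was lowest in WT replicate 1, at 69.7 CPM beside 80.8 to 82.9 CPM, and lowest among Mtm1-/y mice in replicate 3, at 106 CPM beside 128 to 132 CPM. Psmb10 in Mtm1-/y replicate 1 was 8.34 CPM beside 14.1 to 15.2 CPM. The low-level Psme2b was 0.443 CPM in WT replicate 3 and 0.293 to 0.316 CPM in the others. No member was called in the interaction test for a different response to tamoxifen between genotypes.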

How the results depend on the processing

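In Mtm1-/y against WT, 23 to 32 members were called over 17 alternatives (27 as reported), with 24 without a filter on low counts, 32 with DESeq2 and 23 to 32 with a library left out. In Mtm1-/y + TAM against WT + TAM the count was 19 to 30 under other settings (24 as reported) but 10 to 20 with a library left out, namely 12 without Mtm1-/y + TAM replicate 1 and 10 without replicate 2. Without the 2 libraries that stand apart the counts were 32 and 27. No alternative called a member in either tamoxifen comparison or in the interaction, and no called gene among those named changed sign. In the untreated comparison 5 of the 27 called members, Psmd1, Psmd12, Psma4, Psma5 and Psme3, lost the call in at least 1 alternative (18 times in all), and 6 others gained one. In the treated comparison 14 of the 24 lost it (62 times in all) and 9 others gained one. Over all genes, WT + TAM against WT gave 48 calls as reported, 298 with DESeq2 and 347 without the 2 libraries that stand apart. Deviations from the group mean had a correlation over 0.1 in 6 of 21 same-numbered pairs across groups and in 10 of 63 other pairs. The medians were -0.0041 and -0.013, and the highest value, 0.306, was in a same-numbered pair. These values do not decide whether mice were paired by number. With a replicate block 26 and 24 members were called in the 2 genotype comparisons. The spread between 3 or 4 mice limits what can be detected for members of low level such as Psmb8, Psmb9 and Psmg3.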
